A study of Mus musculus with 2 samples.

Results

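A class of tumour macrophages high in Arg1 was made up of 687 cells of the treated library, 6.34% of the 10835 cells that the authors kept (exact binomial 95% interval 5.89% to 6.82%, counting error only). Cells were selected by unique molecular identifier (UMI) counts of named genes. A cell had to hold at least 5 UMIs of Lyz2, Csf1r and Apoe together, the macrophage gate, and at least 10 UMIs of Arg1. It also had to hold under 2% of its UMIs in the neutrophil genes S100a8, S100a9, Csf3r and G0s2, under 3 UMIs of Inhba, Nos2 and Slc7a2, under 3 UMIs of Cd163, Folr2 and Lyve1, and under 10 UMIs of the interferon-induced genes Cxcl9, Cxcl10, Cxcl11 and Rsad2. The gate held 5699 cells, so the class was 12.1% of it (11.2% to 12.9%), and the 5012 other gate cells served as the comparison. The Arg1 count was among the values that chose the class, so every level and ratio here is a description without a test.

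The series held 2 libraries from subcutaneous tumours of 4T1, a mouse breast cancer line, in animals of wild-type genotype per the labels. The control group received PBS, a salt solution, and the treated group an agent that the labels call PCN and the series design calls PATCH. Each group was 1 library, and the labels do not say how many animals gave it. No counts of the control tumours were analysed here, and nothing below compares treated with control tumours.

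Arginase 1, the product of Arg1, splits arginine into ornithine and urea, and macrophages switch it on in wound repair, under low oxygen and in many tumours. Arg1-high tumour macrophages are known for using up the arginine that T cells need and for making matrix and growth factors. Ccl24 encodes eotaxin-2, an attractant of eosinophils, Spp1 encodes osteopontin, a secreted adhesion protein, and Fn1 encodes fibronectin. Il6 encodes interleukin 6 and Ereg encodes epiregulin, a ligand of the epidermal growth factor (EGF) receptor.

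The deposited matrix held 96873409 UMIs in 12309 barcodes and 33696 genes, of which the kept cells had 60652188. The Arg1-high macrophages had 7133091 UMIs, from 1625 to 19944 per cell with a median of 9872, against a median of 6649 in the other gate cells. Their median mitochondrial share was 2.30% of UMIs, beside 2.15% in the other gate cells. Of the barcodes listed for the control library 37 also occurred in the matrix, 33 of them listed for both libraries, and 0 of these were Arg1-high macrophages. Because the Arg1 limit is a number of UMIs, deeper cells pass it more easily, and levels are therefore given as UMIs per 1000000 (CPM) summed over the cells of a class. Genes were compared as a ratio of CPM where both sets together had at least 200 UMIs.

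Of the 6 genes used to mark the class, Arg1, Ccl24, Spp1 and Fn1 were found in most of its cells, and Il6 and Ereg in few. A UMI of Spp1 was seen in 673 of the 687 cells (98.0%), of Fn1 in 669 (97.4%) and of Ccl24 in 588 (85.6%), and all of these 3 in 570 cells (83.0%). Il6 was seen in 180 cells (26.2%) and Ereg in 83 (12.1%), and all 6 genes were found together in 38 cells (5.53%). The tenth of the cells with the most Ereg, 69 cells, held 96.8% of its UMIs. The name by Arg1, Ccl24 and Spp1 thus describes most of the class, and Il6 and Ereg describe a minority of it.

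With each cell thinned to 3000 UMIs, which left out 17 shallower cells, Ccl24 was detected in 70.3% of 670 Arg1-high macrophages and in 44.1% of 4188 other gate cells. Spp1 was detected in 94.6% against 85.3%, Fn1 in 95.4% against 66.5%, Il6 in 15.5% against 8.84% and Ereg in 8.66% against 3.94%. Free RNA can give a cell UMIs of genes it does not express. Neutrophil-rich cells, those with at least 2% of UMIs in the 4 neutrophil genes, should lack Ccl24, and 14.3% of the 539 with at least 3000 UMIs held it after thinning. Spp1 was seen in 63.6% of the same 539 cells, so a UMI of Spp1 alone marks little. Before thinning, Ccl24 was found in 7.02% of all 3518 neutrophil-rich cells, whose median depth was 1698 UMIs. These were not cleared of cells in the macrophage gate, of which they held 412. Their highest counts in a cell were 174 UMIs of Ccl24 and 740 of Spp1. The shares may therefore hold mixed cells as well as free RNA, and the part of each was not tested.

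The Arg1 level itself (ENSMUSG00000019987) ran from 10 to 153 UMIs per Arg1-high macrophage with a median of 19, and summed to 2317 CPM (95% Poisson interval 2282 to 2353, counting error only). The other gate cells had 708 CPM, and 636 of them (12.7%) also held at least 10 Arg1 UMIs but were over another limit. The class held 35.9% of all Arg1 UMIs of the kept cells, 16529 of 46033. The limit of 10 UMIs sets this share.

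Ccl24 (ENSMUSG00000004814) ran from 0 to 222 per 10000 UMIs of a cell with a median of 7.79, against a median of 1.10 in the other gate cells. Summed, it had 1584 CPM against 750.5, a ratio of 2.11 (2.07 to 2.16). Fn1 (ENSMUSG00000026193) ran from 0 to 141 per 10000 with a median of 37.6, against 6.13. This fibronectin transcript summed to 4069.8 CPM, 1.98-fold the 2058 CPM of the other gate cells. Spp1 (ENSMUSG00000029304) ran from 0 to 1122 per 10000 with a median of 56.6, against 15.5, and summed to 9397 CPM against 5055, a ratio of 1.86 (1.84 to 1.88). The ranges of single cells overlapped for each of these genes, so the classes differed in their centre and not by a gap.

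Il6 (ENSMUSG00000025746) had a median of 0 in both sets and reached 22 UMIs in an Arg1-high macrophage. It summed to 97.4 CPM against 66.4, a ratio of 1.47 (1.35 to 1.60). Ereg (ENSMUSG00000029377), with a median of 0 and a highest count of 41 UMIs, had 61.1 CPM against 36.7, a ratio of 1.66 (1.49 to 1.86). Both cytokine genes were higher in sum, carried by few cells. The plots of the markers by class and of their spread over cells show the same order.

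**Figure D1:**
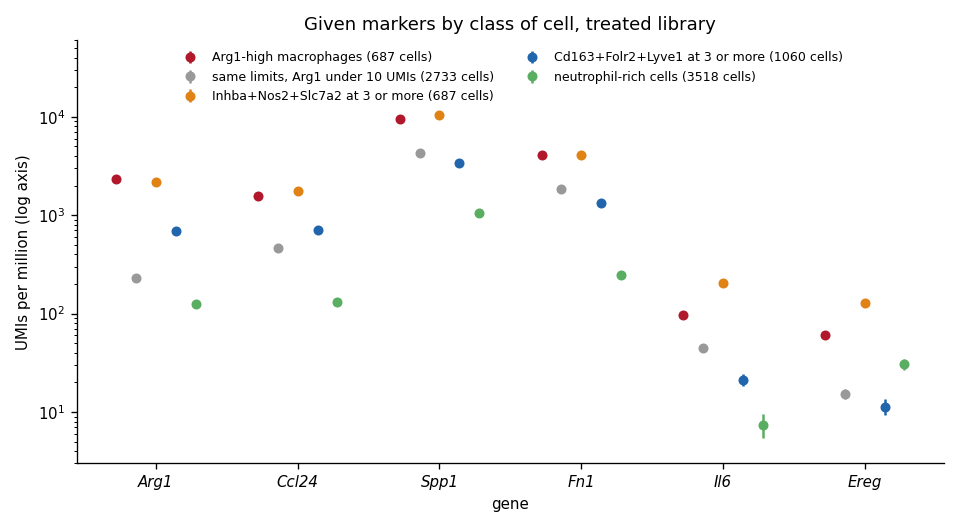
Level of the 6 marker genes in UMIs per 1000000 (log axis) in 5 classes of cells of the treated library, as points with 95% Poisson intervals that cover counting error only. Arg1-high macrophages (red) and the cells at 3 or more UMIs of Inhba, Nos2 and Slc7a2 (orange) lie close together for Arg1, Ccl24, Spp1 and Fn1, while the orange points are above the red for Il6 (203 against 97.4 CPM) and Ereg (127 against 61.1 CPM).

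**Figure D2:**
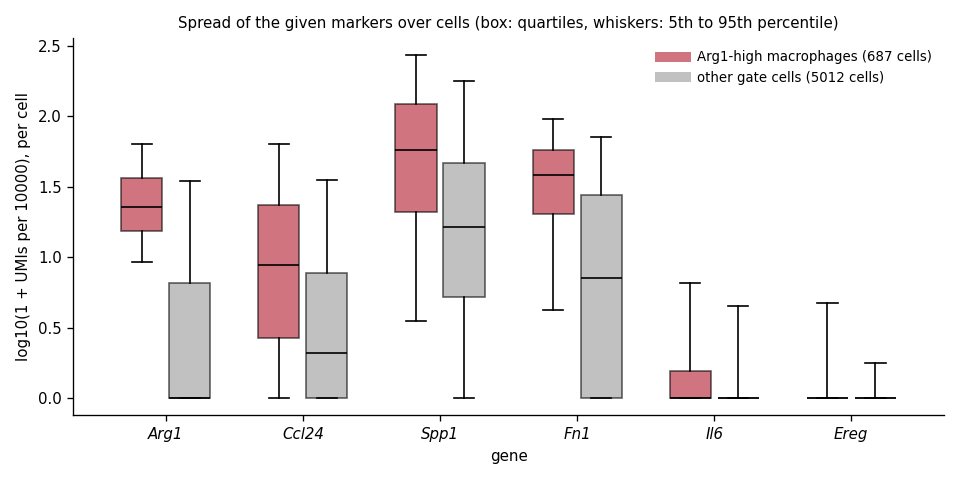
Spread over cells of the 6 markers, as log10 of 1 plus UMIs per 10000, in 687 Arg1-high macrophages (red) and 5012 other gate cells (grey), with boxes at the quartiles and whiskers at the 5th and 95th percentiles. The boxes of Ccl24 and Spp1 overlap between the sets, and the medians of Il6 and Ereg are 0 in both.

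Just outside the Arg1 limit, the 129 cells with 8 or 9 UMIs that met all other limits had 863 CPM of Ccl24, 7406 of Spp1 and 3548 of Fn1. Just inside, the 86 cells with 10 or 11 UMIs had 1002, 9761 and 4122 CPM. Apoe went the other way, from 8739 CPM outside to 7601 inside, and the complement gene C1qa from 3297 to 2604. The edge of the class was therefore a step of moderate size along a range and not a break.

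Cells that met all limits but that on Arg1 were set out by their Arg1 count, in 6 steps of 0, 1 to 2, 3 to 9, 10 to 19, 20 to 49, and 50 or more UMIs. Ccl24 was 337, 429, 677, 1135, 1725 and 3330 CPM over these steps. Spp1 was 2679 CPM at 0 Arg1 UMIs and 10899.8 at 50 or more, and Fn1 went from 1071 to 5244 CPM. Hilpda, which encodes a lipid droplet protein induced by low oxygen, was at 286 CPM in the lowest step and 1497 in the highest, and Vegfa, the gene of a blood vessel growth factor, at 100.4 and 441 CPM. These genes were higher at each further step of Arg1.

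Other macrophage genes had another course over the same steps. C1qa was 1003 CPM at 0 Arg1 UMIs, 2919 at 3 to 9 and 1842 at 50 or more, and Apoe 3217, 7875 and 6192 CPM at these steps. H2-Aa, an MHC class II gene, was lower at each step, from 858 to 25.1 CPM, as was Ctsk, a protease gene known from osteoclasts, from 1055 to 41.9 CPM. Depth moved with the steps, the median cell having 4708 UMIs in the lowest and 13228.5 in the highest, and its part was not tested. Among cells with at least 5000 and under 10000 UMIs, a comparison added after seeing the data, Ccl24 was 415.5 CPM at 0 Arg1 UMIs and 2184 at 20 to 49, and Spp1 was 2611 and 10007 CPM. At this depth H2-Aa was 977 and 224 CPM at these steps, and Ctsk 296 CPM at 0 Arg1 UMIs, 29.7 at 10 to 19 and 44.2 at 20 to 49, so the level of Ctsk at 0 Arg1 UMIs was lower than over all depths and its decline was not continuous. Only 9 cells of that depth had 50 or more Arg1 UMIs, and their Spp1 was 6655 CPM.

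**Figure D3:**
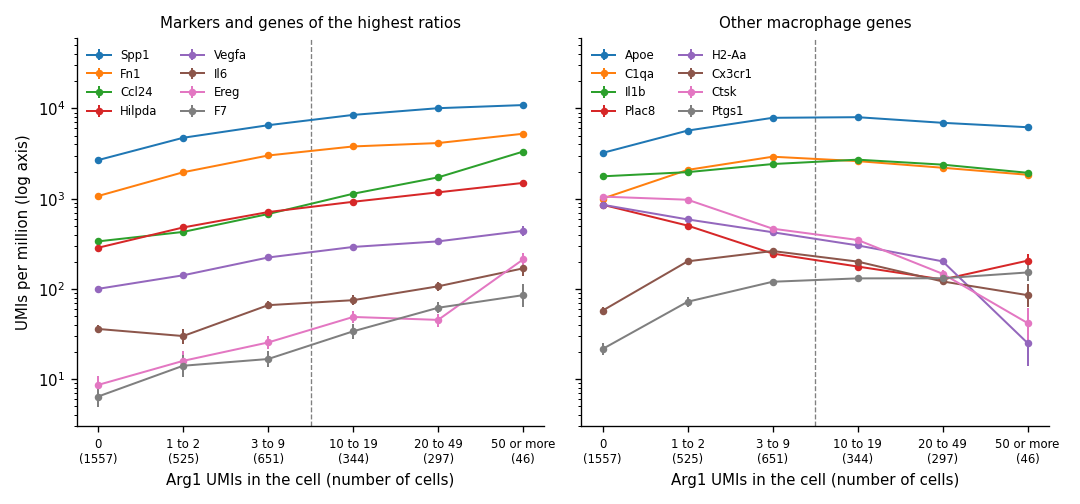
Level in UMIs per 1000000 (log axis, 95% Poisson intervals for counting error only) of marker genes on the left and other macrophage genes on the right, in cells of 6 ranges of Arg1 UMIs that met all other limits, with cell numbers in brackets and the limit of 10 UMIs as a dashed line. Ccl24 goes from 337 to 3330 CPM across the axis, while H2-Aa goes from 858 to 25.1 CPM.

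Against the 5012 other gate cells, 16 of 9969 genes had a ratio of 2 or more (0.160%) and 585 a ratio of 0.5 or less (5.87%). The median log2 ratio over all these genes was -0.11, and 31.4% of them had a ratio above 1. Of the 16 higher genes 1 was Arg1 and 4 were of kinds left out of naming, such as predicted genes, which left 11. Ccl24 was among them, and Spp1, Fn1, Il6 and Ereg were not. Few genes were thus far higher in this class, and the lower genes were more numerous.

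Coagulation factor VII, F7, had the highest ratio, 2.57 (2.26 to 2.92), at 50.9 CPM against 19.8, and was seen in 213 of the 687 cells (31.0%). Ptgs1, which encodes cyclooxygenase 1 of prostaglandin synthesis, had 133.0 CPM against 57.9, a ratio of 2.30 (2.13 to 2.48). Rnase2a, an eosinophil-type ribonuclease gene, was at 29.9 against 13.3 CPM, 2.25-fold. Apoc2, an apolipoprotein that activates lipoprotein lipase, was 2.20-fold at 289.6 CPM, and Socs2, a brake on cytokine receptors, 2.19-fold at 111 CPM. Trf, the iron carrier transferrin, was at 456 against 218 CPM, 2.09-fold, and was found in 70.9% of the cells, with 2138 of its 3251 UMIs in cluster 1, described below.

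The next genes by ratio were between 1.88 and 2.06. They included Fam20a, a secretory pathway kinase-like protein, at 2.06, Adamdec1, a secreted metalloprotease of gut and tissue macrophages, at 2.04, and the glycolytic aldolase gene Aldoc at 2.03. Of the 274 Adamdec1 UMIs 244 came from the 193 cells described below as cluster 1, and the rest of the class had 6.23 CPM, below the 18.8 CPM of the other gate cells. Vegfa had 325 CPM against 165, a ratio of 1.97 (1.88 to 2.06), and was seen in 525 cells (76.4%). Nt5e, which encodes the adenosine-forming enzyme CD73, was 1.98-fold at 139 CPM. Ppbp, a platelet-type CXC chemokine gene, was 1.98-fold, and Camk2n1, Sox4, Eml1, Cib2 and AU022793 had ratios of 1.97, 1.88, 1.90, 1.90 and 2.04. Most Ppbp UMIs lay in clusters 2 and 4, described below, with 304 and 152 UMIs at 170.0 and 349 CPM. Camk2n1 had 80.1 CPM in cluster 1 and 13.7 CPM in the rest of the class.

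The genes with the lowest ratios belonged to other cell types. The neutrophil granule genes Ngp and Camp were at 3.08 and 2.10 CPM, against 352 and 223 in the other gate cells, and Ly6g at 3 UMIs against 1591. The plasma cell gene Jchain and the genes Dpt, Vegfd and Nox4, known from fibroblasts, had 0 UMIs. Counted against a floor of 3 UMIs over the class, Jchain was at least 31.8-fold lower, Dpt at least 21.0-fold, Vegfd at least 15.1-fold and Nox4 at least 12.3-fold. Olfm4, a neutrophil gene, and Cfd, the gene of complement factor D, were at 1 UMI each, with ratios of 0.00697 (0.000176 to 0.0390) and 0.00702 (0.000178 to 0.0393), and Apod had a ratio of 0.0216. The comparison set held 412 cells over the neutrophil limit, and markers of fibroblasts summed to 1481 CPM in it against 123 CPM in the class.

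Genes of low oxygen and glycolysis were higher as a list. Of 28 measured genes 24 had a ratio above 1 and 0 had a ratio of 2 or more, with a median log2 ratio of 0.39 beside -0.11 over all genes. Vegfa led it, followed by Hilpda at 1086 against 593 CPM, a ratio of 1.83 (1.79 to 1.88), and Ddit4, a stress brake on growth signalling, at 42.6 against 24.7 CPM. Adm, the gene of the vessel-dilating hormone adrenomedullin, went the other way at 3.79 against 12.4 CPM. Against the 2733 gate cells that met all other limits but had under 10 Arg1 UMIs, called Arg1-low cells below, 24 of 27 genes of the list were above 1 (25.3% of all genes) and 5 were at 2 or more, and the median was 0.76.

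Many genes induced by low oxygen carry the core letters ACGTG that the factor HIF binds. In RefSeq windows of 250 bases before the start site (GRCm38.p6), ACGTG stood on either strand in 13 of the 28 list genes that have a window (46.4%) and in 4477 of all 27025 windows (16.6%). Of the 23 genes that are markers or among the 20 of highest ratio, 14 have a window and 1 held these letters. No window was found for Arg1, Ccl24, Fn1 and Ereg. Shown are 3 windows, that of the marker Il6 and, as examples of the list with the matches in view, those of Pgk1 (phosphoglycerate kinase, 1.38-fold at 473 CPM) and Bnip3 (a mitophagy receptor, 1.39-fold at 119 CPM). Pgk1 and Bnip3 were chosen after their values were seen. Capitals mark the matches.
Il6, chr5:30012864-30013113, plus strand: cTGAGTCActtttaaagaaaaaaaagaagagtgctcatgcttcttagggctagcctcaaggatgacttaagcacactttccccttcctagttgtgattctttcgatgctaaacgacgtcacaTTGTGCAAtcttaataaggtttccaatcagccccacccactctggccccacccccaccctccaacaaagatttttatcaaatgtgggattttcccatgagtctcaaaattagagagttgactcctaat
Pgk1, chrX:106186850-106187099, plus strand: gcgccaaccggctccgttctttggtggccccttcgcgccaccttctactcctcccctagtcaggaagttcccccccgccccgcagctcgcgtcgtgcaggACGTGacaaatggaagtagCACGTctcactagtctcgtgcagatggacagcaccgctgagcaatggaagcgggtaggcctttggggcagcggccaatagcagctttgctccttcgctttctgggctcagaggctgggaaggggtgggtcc
Bnip3, chr7:138909507-138909756, minus strand: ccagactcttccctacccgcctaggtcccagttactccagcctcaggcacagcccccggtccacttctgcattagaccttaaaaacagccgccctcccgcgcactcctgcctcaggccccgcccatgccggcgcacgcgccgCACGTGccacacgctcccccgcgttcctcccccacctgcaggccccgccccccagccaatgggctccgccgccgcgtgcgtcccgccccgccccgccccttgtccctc
The Pgk1 window held ACGTG 150 bases before the start site and on the other strand 131 bases before it, and that of Bnip3 on both strands in overlap, 108 and 107 bases before. The Il6 window held the AP-1 letters TGANTCA 249 bases and on the other strand the C/EBP letters TTGCNNAA 128 bases before the start site. Over all windows, TGANTCA was found in 6.87% and TTGCNNAA in 9.55%, and among the 14 windows of markers and highest genes in 3 and 2. The STAT motif, searched on both strands as were the others, was in 0 of these 14 windows and in 5.87% of all, which says only that its letters are not in those windows. A match describes letters only and shows no binding.

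Inflammatory cytokine genes were higher as a list by a similar amount. Of 16 measured genes 13 had a ratio above 1 and 0 reached 2, with a median log2 ratio of 0.35. Clcf1, a cytokine of the interleukin 6 family, was 1.65-fold at 7.99 CPM, Il1a 1.54-fold at 776 CPM, and Osm, the gene of oncostatin M, 1.51-fold at 911 CPM. The 4 measured EGF family genes had a median of 0.36, led by Ereg, with Areg (amphiregulin) at 159 against 122 CPM and Nrg1 (neuregulin) at 222 against 176 CPM. Hbegf was at 74.9 against 84.2 CPM, so 3 of these 4 ligands were above 1.

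Among CXC chemokine genes 8 of 10 had a ratio above 1 and 2 had a ratio of 0.5 or less, with a median of 0.23. The neutrophil attractant gene Ppbp led it, with most of its UMIs in clusters 2 and 4, described below. Cxcl14 was at 318.5 against 197 CPM. Cxcl12 and Cxcl13 were the 2 low genes at 2.38 and 0.28 CPM. Among CC chemokine genes Ccl24 stood alone at a ratio of 2 or more. Ccl8, a monocyte attractant made by resident macrophages, was at 68.3 against 805 CPM, 0.0848-fold, and Ccl12 at 199 against 278 CPM. Ccl24 and Ccl8 lay at opposite ends of that list.

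The coagulation list had F7 at its head, then F3, the gene of tissue factor that F7 binds, at 26.8 against 17.7 CPM (1.51-fold). The anticoagulant genes Procr and Tfpi were low, at 3.93 and 3.08 CPM, with ratios of 0.584 and 0.628, so 4 of 8 genes were above 1 and the median was 0.02. In prostaglandin and leukotriene synthesis Ptgs1 was followed by Tbxas1, thromboxane synthase, at 377 against 253 CPM (1.49-fold), while Ptges2 and Alox5 had ratios of 0.609 and 0.688. The median of those 14 genes was 0.04.

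Of 18 measured alternative activation genes 6 had a ratio above 1, near the 31.4% of all genes, and the median of -0.15 was near the -0.11 of all genes. Ptgs1 and Ccl24 were at 2 or more, and Clec10a, a sugar-binding receptor, and Flt1, a receptor of vessel growth factor, at 0.259 and 0.234. In the list on arginine and polyamines Arg1 was alone at 2 or more, and the median of 18 genes was -0.04. Nos2 and Slc7a2, which the class limits hold down, were low in it, and Ass1, which rebuilds arginine, had 7.71 against 15.2 CPM.

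Antigen presentation and interferon genes were lower. Of 8 MHC class II genes 4 had a ratio of 0.5 or less and the median was -0.99. H2-Eb1 was at 103 against 286 CPM, H2-Ab1 at 91.3 against 212 and H2-Aa at 235 against 525.6. Cluster 1, 193 cells described below, was not low in H2-Aa and H2-Ab1, at 575 and 210.6 CPM, with H2-Eb1 at 239.5. The rest of the class had 70.9, 33.7 and 36.6 CPM of these genes. All 22 type I interferon response genes had a ratio below 1, 9 of them at 0.5 or less, with a median of -0.88. Ifit3 was at 3.93 against 17.1 CPM and Ifit2 at 5.19 against 17.8. The class limit on 4 interferon-induced genes bears on this list, since the comparison set held cells over it. Against the Arg1-low cells, which met the same limit, 15 genes of the list were measured. All 15 were below 1 and 0 were at 0.5 or less, with a median of -0.57. MHC class I genes had a median of -0.24, with 1 of 13 above 1.

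Monocyte genes had a median of -1.77 over 10 genes, and 6 had a ratio of 0.5 or less. Ly6c2, a marker of blood monocytes, was at 8.97 against 41.7 CPM. Cd177 and Ifitm6, lowest in that list, are also expressed by neutrophils, and against the Arg1-low cells the median was -0.65. Lysosome genes had a median of -0.01 and complement genes of 0.11. Lipid genes had a median of -0.16, with Apoc2 high and Lpl, Fabp4 and Cd36 at ratios of 0.220, 0.310 and 0.324. Cluster 2, 191 cells described below, had 209.7 CPM of Fabp4 and 169 of Cd36. The rest of the class had 10.3 and 39.1 CPM of these genes. Cell cycle genes had a median of -0.19. The plot of the gene lists gives the measured genes of all lists but those of the rule, the 6 markers and the markers of other cell types.

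**Figure D4:**
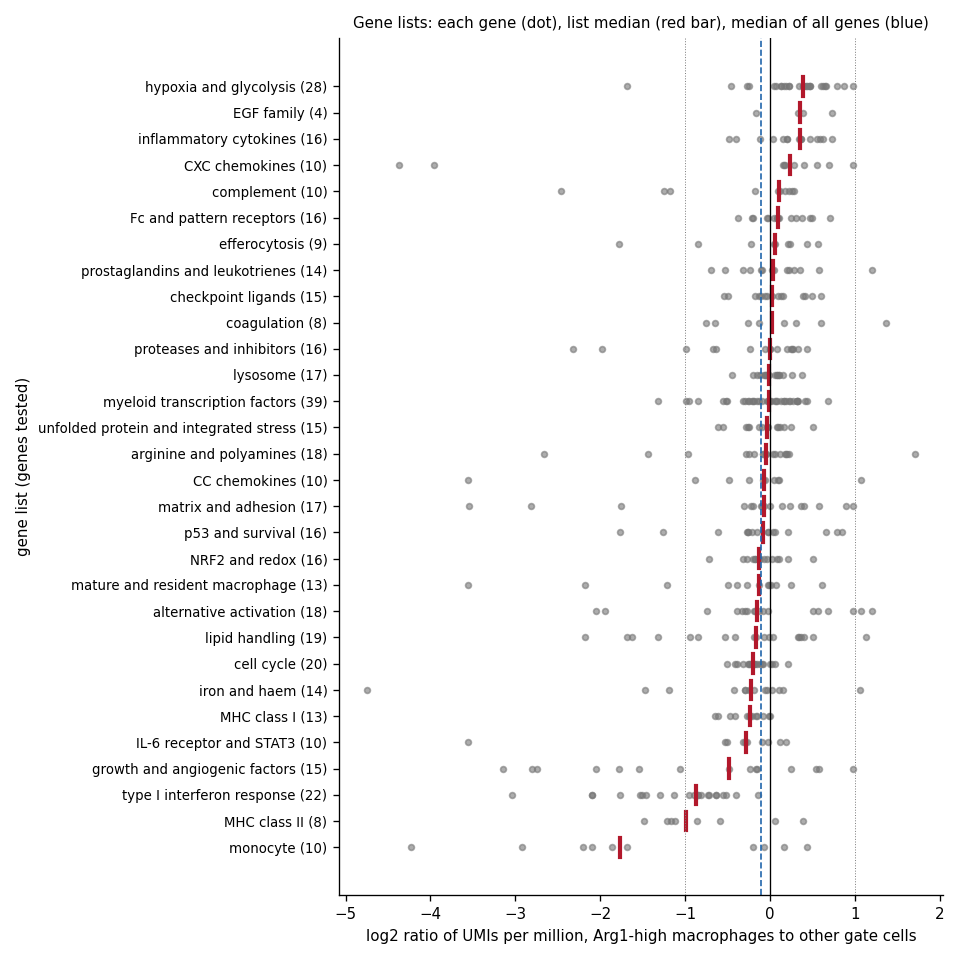
Log2 ratio of UMIs per 1000000 between 687 Arg1-high macrophages and 5012 other gate cells for each measured gene (dots) of the gene lists other than those of the rule, the 6 markers and the markers of other cell types, with list medians (red bars), the median of all 9969 genes (dashed blue line) and ratios of 0.5 and 2 (dotted lines). Of the lists plotted, hypoxia and glycolysis has the highest median at 0.39 and monocyte genes the lowest at -1.77.

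Against the 2733 Arg1-low cells, whose median depth was 5633 UMIs, 40 of 8639 genes were at a ratio of 2 or more (0.463%) and 384 at 0.5 or less (4.44%), and 25.3% were above 1. All 6 markers were at 2 or more, from Spp1 and Fn1 at 2.19 to Il6 at 2.20, Ccl24 at 3.43, Ereg at 3.96 and Arg1, fixed by the limit, at 10.1. Rnase2a had the highest ratio, 11.8 (8.56 to 16.5), at 29.9 against 2.53 CPM, and Ppbp and F7 followed at 4.78 and 4.54. Most Ppbp UMIs of the class lay in clusters 2 and 4, described below. Tnfrsf9, the gene of the costimulatory receptor 4-1BB, was 3.40-fold, Egln3, an oxygen sensor enzyme, 3.12-fold, and Mmp12, macrophage elastase, 2.63-fold. These last 3 were chosen after their values were seen, and in the cells described next they were higher than in the class, with ratios of 0.409, 0.324 and 0.146. Against all other gate cells Tnfrsf9 was at 1.52, Egln3 at 1.05 and Mmp12 at 0.641. Genes of fibroblasts and other cells filled the low end, among them Dcn, the gene of decorin, at 3.08 against 157 CPM.

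Cells at 3 or more UMIs of Inhba, Nos2 and Slc7a2, also 687 in number by coincidence, were the most like in the markers. Against them 18 of 6842 genes were at a ratio of 2 or more (0.263%) and 222 at 0.5 or less (3.24%), and 58.0% were above 1. Arg1 had a ratio of 1.07, Fn1 of 0.995, Ccl24 of 0.903 and Spp1 of 0.897, while Il6 and Ereg were both at 0.481. Of the 13 cytokine genes measured, 11 were below 1, with a median of -0.53, and 25 of 26 genes of low oxygen and glycolysis were below 1, with a median of -0.27. All 17 cell cycle genes were above 1, with a median of 0.68. Part of these counts came from few cells. The 56 Arg1-high macrophages described below as cluster 5 had 396 CPM of Ube2c, a leading gene of that cluster. The rest of the class had 7.95 CPM of it, against 27.7 in the compared cells. Mki67 had 219 CPM in cluster 5 and 20.4 in the rest. Cell cycle UMIs were not confined to cluster 5, since 428 of the 687 cells held at least 3. Ctsk, chosen like the next gene after its values were seen, was 5.37-fold, but 1385 of its 1660 UMIs lay in cluster 5, in 20 cells with a UMI, and the rest of the class had 43.7 CPM against 43.3. The fractalkine receptor gene Cx3cr1 was 2.21-fold, carried by the 193 cells of cluster 1 at 358 CPM, with 57.8 CPM in the rest of the class against 70.5 in the compared cells. Many of the genes with the highest ratios against all other gate cells were no higher than in these cells. F7 had a ratio of 0.862, Rnase2a of 0.509, Ppbp of 0.874, Vegfa of 0.936, Nt5e of 0.920 and Aldoc of 0.905. Ptgs1 was at 1.72, Apoc2 at 1.41 and Trf at 1.25. Trf had 921 CPM in cluster 1 and from 174.5 to 314 CPM in each other cluster. The compared cells held 2643 Trf UMIs of 7247092, a level above each of those other clusters. Ptgs1 had 209.8 CPM in cluster 1 and from 75.5 to 122 CPM in each other cluster.

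Against the 1060 cells at 3 or more UMIs of Cd163, Folr2 and Lyve1, genes of resident macrophages, 255 of 7343 genes were at 2 or more (3.47%) and 308 at 0.5 or less (4.19%), and 36.0% were above 1. The cytokine list had a median of 1.75 over 12 genes, 8 of them at 2 or more, with Il1a at 776 against 103 CPM, a ratio of 7.54, and Il1b at 2498 against 333, a ratio of 7.49. The coagulation list had a median of 2.15 over 5 genes, with F10, factor X, at 8.40-fold. Cd5l, a secreted scavenger protein gene, was at 1.40 against 79.0 CPM and Ccl8 at 68.3 against 2488. All 5 measured MHC class II genes were above 1, whereas 1 of 7 was above 1 against the Arg1-low cells. Of the 1676 H2-Aa UMIs of the class, 1335 lay in the 193 cells described below as cluster 1, at 575 CPM. The rest of the class had 70.9 CPM, a level below that of the compared cells. With cells thinned to 3000 UMIs, H2-Aa was seen in 12.1% of the class and 10.5% of the compared cells. Il1b, F10 and Cd5l were chosen after their values were seen.

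The limits on other genes removed many Arg1-high cells. Under the neutrophil limit 1300 gate cells held at least 10 Arg1 UMIs, and 613 of them were over at least 1 of the 3 other limits, 420 that on Inhba, Nos2 and Slc7a2, 188 that on Cd163, Folr2 and Lyve1, and 35 the interferon limit. The 391 cells over the Inhba, Nos2 and Slc7a2 limit alone had 3274 CPM of Arg1, 2449 of Ccl24, 12588 of Spp1, 254 of Il6 and 162 of Ereg. Each of these was above the level in the class itself, and Apoe at 3688 against 7369 CPM and C1qa at 1232.5 against 2363 were below. The 170 cells over the Cd163 limit alone had 2463 CPM of Arg1, 5866 of Spp1 and 1377 of Mrc1, the mannose receptor gene, against 717 of Mrc1 in the class. The marker genes were therefore not highest in the class that carries their names.

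Within the class, clustering without the genes of the rule gave 5 clusters, described here by their leading genes, which define them and are not findings. Cluster 1 held 193 cells (28.1%) and was led by Adamdec1, 16.9-fold over the other Arg1-high macrophages, with H2-Aa at 8.12-fold and Cx3cr1 at 6.20-fold. It had 13039.8 CPM of Apoe and 4363 of C1qa. Cluster 2 held 191 cells (27.8%), led by Fabp4, a fatty acid carrier, at 20.4-fold, Ednrb at 7.49-fold and Cd36 at 4.33-fold, and had 1373 CPM of Mrc1.

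Cluster 3 held 178 cells (25.9%) and was led by Ereg at 4.79-fold, Slpi, a protease inhibitor, at 4.09-fold, and Il6 at 3.52-fold. It had the most Spp1, 14645 CPM, the most Ccl24, 2370.5 CPM, and the most Fn1, 5216 CPM, of the 5 clusters, together with 4409.7 CPM of Il1b and 453 of Ccr2, the receptor that brings monocytes into tissue. Il6 was seen in 77 of its cells (43.3%), against 20 of 191 cells (10.5%) in cluster 2. All 5 markers other than Arg1 were highest in cluster 3. Cluster 4, 69 cells, was led by the neutrophil attractant Cxcl5 at 47.4-fold and Mmp12 at 14.4-fold, with Egln3, Hmox1 and Bnip3 among its 10 leading genes. It had the highest Arg1 level, 4430.3 CPM, and a median depth of 5896 UMIs.

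Cluster 5, 56 cells (8.15%), was led by the dividing-cell genes Ube2c at 49.8-fold, Birc5 at 30.9-fold and Top2a at 27.1-fold. Ctsk at 37.6-fold and Acp5 at 10.1-fold, genes known from osteoclasts, stood among its leading genes, and it had the lowest Ereg, 7.12 CPM from 6 UMIs. Its median depth was 16169.5 UMIs, the greatest of the 5. Depth thus moved with the clusters, and its part in them was not tested.

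**Figure D5:**
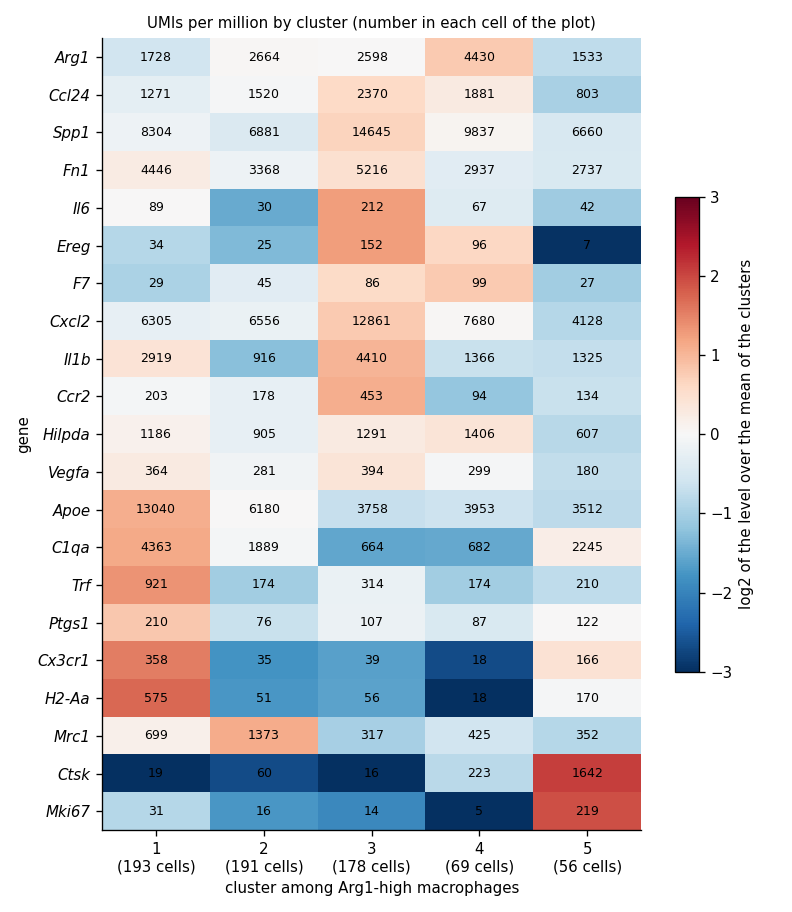
Level in UMIs per 1000000, printed in each field, of selected genes in 5 clusters of Arg1-high macrophages, with colour for the log2 of that level over the mean of the clusters. Il6 (212 CPM) and Ereg (152 CPM) are highest in cluster 3, Arg1 in cluster 4, and Ctsk (1642 CPM) and Mki67 (219 CPM) in cluster 5.

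Detection of Il6 and of Ereg overlapped in part. Ereg was seen in 40 of the 180 cells with Il6 (22.2%, 16.4% to 29.0%) and in 43 of the 507 without (8.48%, 6.21% to 11.3%). The cells with Il6 were deeper, with a median of 11517.5 UMIs against 9425, and the part of depth was not tested. Ccl24 was seen in 164 of the cells with Il6 (91.1%) and in 424 of those without (83.6%).

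Markers of some other cell types were near 0, and those of neutrophils and osteoclasts were not. The 10 tumour epithelial markers summed to 43.7 CPM, from 0 to 7.85 per 10000 UMIs over cells, with Krt5 at 0, and 18 cells (2.62%) held at least 3 such UMIs. The 10 T cell markers summed to 6.31 CPM with Cd8a and Icos at 0, and the 8 B cell markers to 7.43 CPM with Ms4a1 and Fcmr at 0. The 10 fibroblast markers summed to 123 CPM, from 0 to 42.9 per 10000, with Dpt at 0. Of the class 97 cells (14.1%) held at least 3 such UMIs, against 12.8% of the other gate cells. The 10 endothelial markers summed to 54.4 CPM, against 69.1 CPM in the other gate cells. At least 3 endothelial UMIs were held by 40 cells (5.82%), against 2.65% of the other gate cells. The 12 neutrophil markers summed to 822.5 CPM, from 0 to 227 per 10000, none at 0, against 9827 CPM in the other gate cells. At least 3 neutrophil UMIs were held by 468 cells (68.1%), against 58.3% of the other gate cells. The 9 osteoclast markers summed to 1161 CPM with Calcr at 0, against 1317 CPM in the other gate cells. Of the 8 measured as ratios 7 were below 1. Counted by cell, the order was the reverse. In the class 364 cells (52.98%) held at least 3 osteoclast UMIs, against 32.58% of the other gate cells. The median was 2.677 per 10000 UMIs of a cell in the class, against 1.830. The class was also deeper, and the part of depth in these shares was not tested. Ctsk had 232.7 CPM and Acp5 168.2 CPM, so most of the sum came from other genes of the list. Cluster 5 held 1385 of the 1660 Ctsk UMIs and 689 of the 1200 Acp5 UMIs. The doublet method called 0 cells, so a cut on its score was set that took in 588 of all kept cells (5.43%). Scores over this cut were given to 50 Arg1-high macrophages (7.28%) and to 372 other gate cells (7.42%). These shares depend on the cut and are not doublet rates. The part of such mixed RNA in the levels above was not tested.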

How the data were processed

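Per the file headers, the deposited matrix held raw UMI counts per gene and barcode from Cell Ranger 8.0.1, and the submitters' processing notes also name STAR. The genome build and annotation were not given in the sources used here. A table deposited by the authors listed the kept cells with their library, and those of the treated library were used. Members and gene lists were chosen with earlier results of these data known. UMI counts were summed over cells and given in CPM. Ratios have exact conditional Poisson intervals, shares exact (Clopper-Pearson) binomial ones, all 95% and for counting error only, since each group was 1 library and cells are not replicates. Log2 ratios used 0.5 added counts. Named were the 6 markers, the 20 highest and 10 lowest genes without rule, mitochondrial, ribosomal, haemoglobin, antigen receptor and predicted genes, and up to 4 genes per list with the largest ratio either way. Other genes, including those of clusters, of Arg1 steps and of class contrasts, were chosen after their values were seen. Of the list names 1 was found under another symbol. Clustering used log counts per 10000 and leidenalg 0.10.2 at resolution 0.5. Scrublet (scanpy 1.11.5) marked 0 cells and so had not worked, and removing high scores was an alternative. Free RNA was not subtracted. The ratio step was tested on simulated data. Python 3.11.15, numpy 2.4.6 and scipy 1.17.1 were used.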

Additional observations from a re-analysis of the deposited data

Results flagged for a closer look

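Of the 1474 barcodes that the authors left out, 92 met every limit of the class. They were noticed because they lie outside the cells analysed. Of these barcodes 91 had at least 20000 UMIs, a limit that no kept cell reached, and their median was 23277 UMIs. They had 9150.1 CPM of Spp1, 1116 of Arg1, 875 of Ccl24 and 20.3 of Ereg, against 9397, 2317, 1584 and 61.1 in the kept Arg1-high macrophages. Col1a1, a fibroblast gene, was at 434 CPM in them against 33.2, and Epcam, an epithelial gene, at 22.8 against 4.77. With 1 library per group, no sample could be compared with others of its group.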

How the results depend on the processing

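No paired analysis was possible because each group was 1 library and counts of 1 library were used. The class held 1085 cells with Arg1 at 5 UMIs or more and 343 at 20 or more. The 16 higher genes became 43 with each cell weighted equally, 40 against cells within every limit with Arg1 under 10, 55 over all barcodes of the matrix, 29 without cells holding markers of other types, 40 with a minimum of 50 UMIs per gene, 1220 with no minimum, 26 with ratios over their median, and 49 against all gate cells with Arg1 under 10, an alternative chosen after seeing the data. The 585 lower genes became 384 against cells within every limit, 260 with cells thinned to 3000 UMIs, 1596 over all barcodes, 238 without cells holding other markers, 1382 with a minimum of 50 UMIs and 7722 with none. Of 84 values of the 6 markers 58 moved and 0 changed direction. Among the 84, 14 were of Arg1, whose direction the class limit fixed, with log2 ratios from 1.36 to 3.54. The other markers ran from 0.22 to 1.99, both ends from Ereg. Of 271 values of the highest genes 118 moved in size and 1 changed direction, Sox4, at a log2 ratio of -0.0105 over all barcodes. Of 420 list medians 42 moved. Hypoxia and glycolysis stayed between 0.24 and 0.76, cytokines between 0.18 and 0.55, MHC class II between -1.43 and -0.65. CXC chemokines ranged from -0.04 to 0.57 and coagulation from -0.28 to 0.69. The cause was not tested beyond the change of cells or genes each alternative makes. At resolution 1 the class gave 8 clusters. Genes near the minimum of 200 UMIs and shares of Il6 and Ereg are limited by depth.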
